A study of Mus musculus with 16 samples.

Results

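The colony-stimulating factor system was described here through 7 genes in microglia and macrophages sorted from the brains of mice that carry α-synuclein (α-syn) in the striatum. The 5 receptor genes were Csf1r, Csf2ra, Csf2rb, Csf2rb2 and Csf3r, and the 2 ligand genes were Csf1 and Il34. They were chosen by symbol, and all 7 were found among the 18580 genes that the tables list. Csf1r encodes the tyrosine kinase receptor that binds both CSF1 and IL-34, and microglia depend on its signal for survival. Csf2ra encodes the specific α chain of the receptor for granulocyte-macrophage colony-stimulating factor (GM-CSF). Csf2rb encodes the β chain that this receptor shares with the receptors for IL-3 and IL-5, and Csf2rb2 is its mouse paralog, the β chain used by IL-3 alone. Csf3r encodes the receptor for granulocyte colony-stimulating factor (G-CSF) and is best known from neutrophils.

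Adult male and female CD163KO mice (CD163tm1.1(KOMP)Vlcg, which lack the scavenger receptor CD163) and WT C57BL/6N littermates were 12 weeks old at surgery. Each mouse received murine α-syn in both striata, either as monomer (MONO, the control) or as pre-formed fibrils (PFF, which seed α-syn pathology), and was sacrificed after 2 months. Microglia were sorted as CD11b+ CD45 low/intermediate cells and macrophages as CD11b+ CD45 high cells, a gate that by the study's own description also takes infiltrated cells, neutrophils and NK cells. SMART-seq2 libraries gave 16 tables, and each of the 8 groups (a population in mice of one genotype and treatment) holds 1 library labelled female and 1 labelled male. The study's methods speak of triplicates for sequencing and of technical replicates, and whether a table joins such replicates or several mice is not given in the sources used here. p-values therefore measure only the spread between these libraries. In bulk libraries, fewer cells of a type and less RNA per cell cannot be told apart.

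The libraries held 12170686 to 21433841 estimated counts in macrophages and 8648751 to 18768238 in microglia. Cd163 had 748 to 5275 counts in the 4 WT macrophage libraries and 0 to 1 in the 4 CD163KO macrophage libraries, whereas in microglia it stayed between 0 and 101 counts in both genotypes and did not separate them. The population labels held against their markers: the summed FPKM of the 12 homeostatic microglia genes was 17740 to 43450 in microglia and 956 to 1877 in macrophages, and that of the 12 border-associated macrophage genes was 2308 to 5804 in macrophages and 30.1 to 175 in microglia. The 12 neutrophil genes summed to 22210 to 134800 FPKM in macrophages and 954 to 2737 in microglia. In the edgeR comparison of the populations described below, the genes tested of each list that were called lower in microglia were 12 of 12 for border-associated macrophages, 12 of 12 for neutrophils, 9 of 10 for monocytes, 4 of 6 for dendritic cells, 4 of 5 for NK and T cells, 1 of 4 for endothelium and pericytes and 1 of 2 for pituitary. Called higher were 10 of 12 for homeostatic microglia and 1 of 6 for astrocytes, and 0 were called of 2 for B cells, 3 for neurons, 6 for oligodendrocytes and 6 for choroid plexus. The male CD163KO MONO and male WT PFF libraries stood apart in both populations. Their 10 most abundant genes took 16.5% to 16.6% of the counts in macrophages, against 39.7% to 64.0% in the other 6 macrophage libraries, and 47.7% to 58.7% in microglia, against 13.5% to 16.4% in the other 6. Transcripts of at least 3000 bases took 28.1% to 28.9% of the counts in these macrophage libraries against 6.55% to 12.7% in the others, and 12.5% to 17.2% in these microglia libraries against 33.5% to 37.1%. The study excluded male CD163KO MONO mice, and so do the tests below, while male WT PFF was kept. It also corrected for batch and removed outlier samples by principal component analysis, which the tests below do not. The labels do not say which libraries those outliers were. Y-linked genes had 799 counts in microglia labelled female CD163KO MONO, where the other female libraries held at most 2. The matched macrophage library of that label held 0. The matched pairs and the sex terms of the tests below follow the labels.

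Levels are given on a pair of scales, both per transcript length. The deposited FPKM follows each library's total. The scaled FPKM is the deposited FPKM divided by the library's TMM factor, which offsets the room that a few very abundant transcripts take up. The factors were 0.324 to 0.875 in 6 macrophage libraries and 1.34 to 1.56 in the other 2, and 1.95 to 2.09 in 6 microglia libraries and 0.431 to 0.819 in the other 2.

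The order of the 7 genes by deposited FPKM within a library, which no scaling between libraries can change, was nearly fixed in each population. Csf1r was first in all 16 libraries. In all 8 macrophage libraries Csf2ra followed it, then Csf3r and then Csf2rb. In all 8 microglia libraries the order after Csf1r was Csf3r, Csf2ra, Csf2rb, Csf2rb2, Csf1 and Il34. The populations thus differed in the order of the GM-CSF receptor α chain and the G-CSF receptor. In macrophages the low genes Csf2rb2 and Csf1 changed places between libraries. Relative to Csf1r, the FPKM of Csf3r overlapped between populations, at 2.89% to 30.4% in macrophages and 2.44% to 12.9% in microglia.

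**Figure D1:**
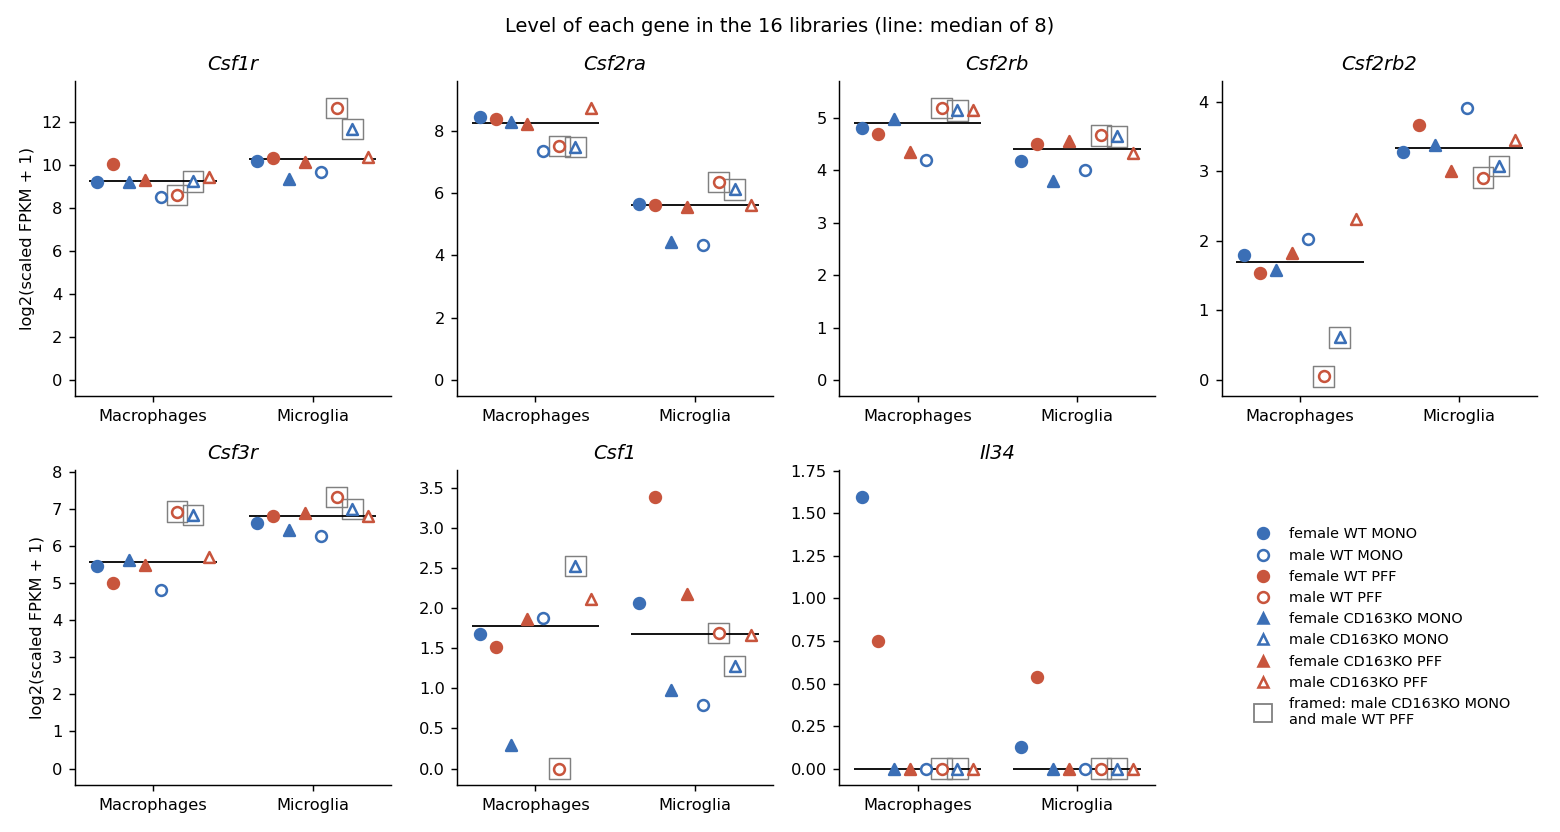
Each panel plots log2(scaled FPKM + 1) of 1 gene in the 8 macrophage and the 8 microglia libraries, with colour for treatment, shape for genotype, filled points for females, open points for males and a line at the median of 8. Frames mark the male CD163KO MONO and male WT PFF libraries. Csf2ra (160.7 to 421 scaled FPKM in macrophages, 19.1 to 81.0 in microglia) and Csf2rb2 (0.0372 to 3.95 and 6.50 to 13.98) do not overlap between populations, while the other 5 genes do. The share of all genes whose ranges do not overlap was not counted, so this only describes the members.

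Csf1r was the most abundant member everywhere. Its deposited FPKM in macrophages had a lowest value of 266, a median of 366 and a highest value of 953, and in microglia 1298, 2507 and 2798. Every microglia library therefore lay above every macrophage library on this scale. On the scaled FPKM the macrophage libraries gave 372, 609 and 1065 and the microglia libraries 653, 1240 and 6494, so that the ranges overlapped, although microglia were higher in 8 of 8 matched pairs. The 2 highest microglia values, 6494 in male WT PFF and 3338 in male CD163KO MONO, came from the libraries that stood apart, whose deposited FPKM of 2798 and 2734 lay near that of the male CD163KO PFF library at 2613. All Csf1r counts were assigned to 1 RefSeq transcript, and the gene lies on chromosome 18 (GRCm38.p6 61105572 to 61131139).

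The comparison of microglia with macrophages took 14 libraries in 7 matched pairs. With edgeR's quasi-likelihood test and Benjamini-Hochberg adjustment, 2501 of 10987 genes tested passed an adjusted p of 0.05, which is 22.8% of them, 930 higher and 1571 lower in microglia. Of the 6 members tested, 3 passed: Csf2rb2 and Csf3r were higher in microglia and Csf2ra was lower. Il34 did not pass the filter on low counts. Scaling by library totals alone gave another split of the whole table, 5415 genes higher and 480 lower, since it moved the median log2 fold change of all genes from 0.28 to 1.94. limma on log2(FPKM + 1) gave 5643 higher and 600 lower with a median of 1.13, and DESeq2 gave 2441 higher and 2035 lower. Values below are those of the edgeR fit, and positive log2 fold changes mean higher in microglia.

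Csf1r gave a log2 fold change of 1.103 ± 0.49 (SE, 95% interval 0.01 to 2.20, adjusted p = 0.142 by edgeR), and so did not pass. Without the male WT PFF pair the log2 fold change was smaller, 0.73, and passed, with an adjusted p of 0.0134 by edgeR. It also passed in edgeR fits with no filter (1.48, adjusted p = 0.016), no block (1.57, adjusted p = 0.0271) and library totals alone (2.60, adjusted p = 1.74e-08), with limma on FPKM (2.60, adjusted p = 6.81e-06) and with DESeq2, where it was 1.19 (adjusted p = 0.0166). Set against the median of all genes in the same fit, Csf1r was 0.83 higher on the log2 scale in the edgeR fit, 0.66 higher with library totals and 1.46 higher with limma.

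Csf2ra, the GM-CSF receptor α chain, was lower in microglia. Its deposited FPKM was 108 at the lowest, 175 at the median and 275 at the highest in macrophages, and 34.9, 72.7 and 103 in microglia. Its scaled FPKM was 161, 303 and 421 in macrophages and 19.1, 48.0 and 81.0 in microglia. The ranges did not overlap on either scale, and macrophages were higher in 8 of 8 pairs. The log2 fold change was -2.81 ± 0.31 (95% interval -3.49 to -2.13), a level 7.02-fold lower in microglia, with an adjusted p of 0.000115 by edgeR. Csf2ra stayed past the threshold in all 18 alternatives, with log2 fold changes from -3.06 to -1.38, the latter with limma on FPKM. It was -3.09 against the median of all genes in the edgeR fit and -3.33 with library totals.

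Within a library, Csf2ra had 28.9% to 59.7% of the FPKM of Csf1r in macrophages and 1.25% to 4.21% in microglia. It had 5.09 to 15.1 times the FPKM of Csf2rb in macrophages and 1.26 to 3.31 times in microglia. The lowest macrophage ratios to Csf2rb, 5.09 and 5.13, were those of male WT PFF and male CD163KO MONO, where the other 6 libraries had 9.30 or more, and the highest microglia ratio, 3.31, was that of male WT PFF. The transcripts differ in length (1850 bases for Csf2ra and 4776 for Csf2rb), and the part of length in this ratio was not tested. In both populations the α chain transcript was thus above that of the common β chain, by a smaller factor in microglia. These ratios were formed after the levels were seen and carry no test.

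Csf3r, the G-CSF receptor, was higher in microglia. Its deposited FPKM in microglia was 68.3 at the lowest, 186 at the median and 228 at the highest. In macrophages it was 9.96 to 29.6 in 6 libraries and 162 and 176 in male WT PFF and male CD163KO MONO. The last 2 macrophage libraries thus lay within the microglia range on this scale, and microglia were higher in 6 of 8 pairs. After scaling, microglia had 75.7, 111 and 158 and macrophages 27.2, 46.1 and 120, microglia were higher in 8 of 8 pairs, and the same 2 macrophage libraries (120 and 113) were the only ones that reached the microglia range. The log2 fold change was 1.16 ± 0.22 (95% interval 0.68 to 1.65), or 2.24-fold, with an adjusted p of 0.00302 by edgeR. It stayed past the threshold in all 18 alternatives, with log2 fold changes from 0.73 to 2.76. The 12 neutrophil genes were all lower in microglia (12 of 12 called, median log2 fold change -7.03 against 0.28 for all genes), so Csf3r moved the other way from that list.

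**Figure D2:**
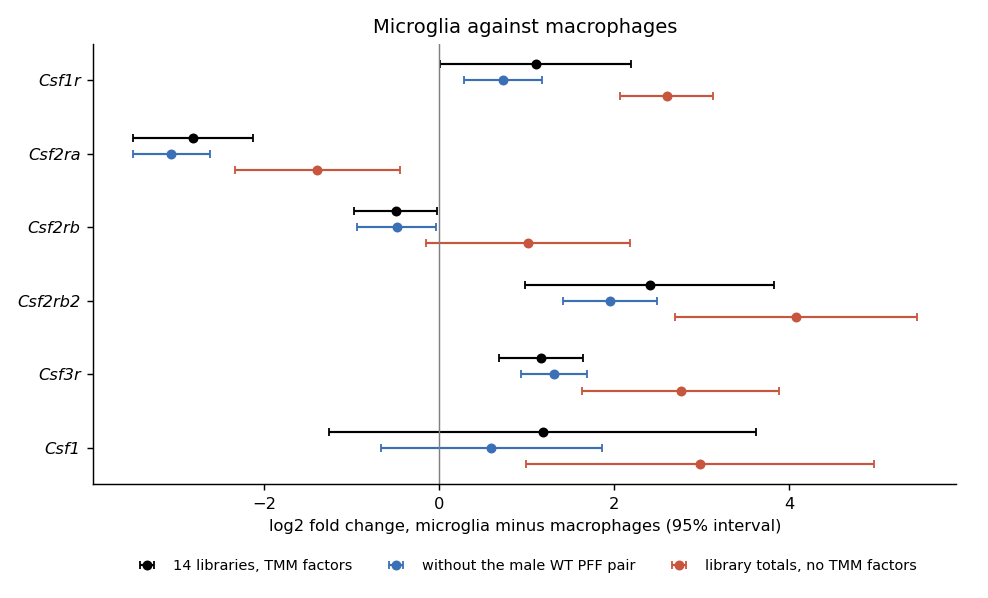
Points give the log2 fold change of each member, microglia minus macrophages, and bars the 95% interval, for the fit of 14 libraries (black), the fit without the male WT PFF pair (blue) and the fit on library totals without TMM factors (red). Csf2ra lies below 0 and Csf2rb2 and Csf3r above 0 in all 3 fits, whereas Csf2rb moves from -0.49 to 1.01 when the TMM factors are left out.

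The ratio of Csf2ra to Csf3r in the same library was above 1 in 8 of 8 macrophage libraries, from 1.502 to 10.9, and above 1 in 0 of 8 microglia libraries, from 0.242 to 0.540. The lowest macrophage ratios were those of the 2 libraries that stood apart. No factor between libraries enters this ratio. The Csf2ra transcript has 1850 bases and those of Csf3r 3583 and 3907, and the part of transcript length in the ratio was not tested. Csf3r counts were split between these 2 RefSeq transcripts, with 43.6% to 92.6% on the longer one in macrophages and 22.7% to 83.5% in microglia. These ranges overlap, so the populations were not separated by the transcript used.

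**Figure D3:**
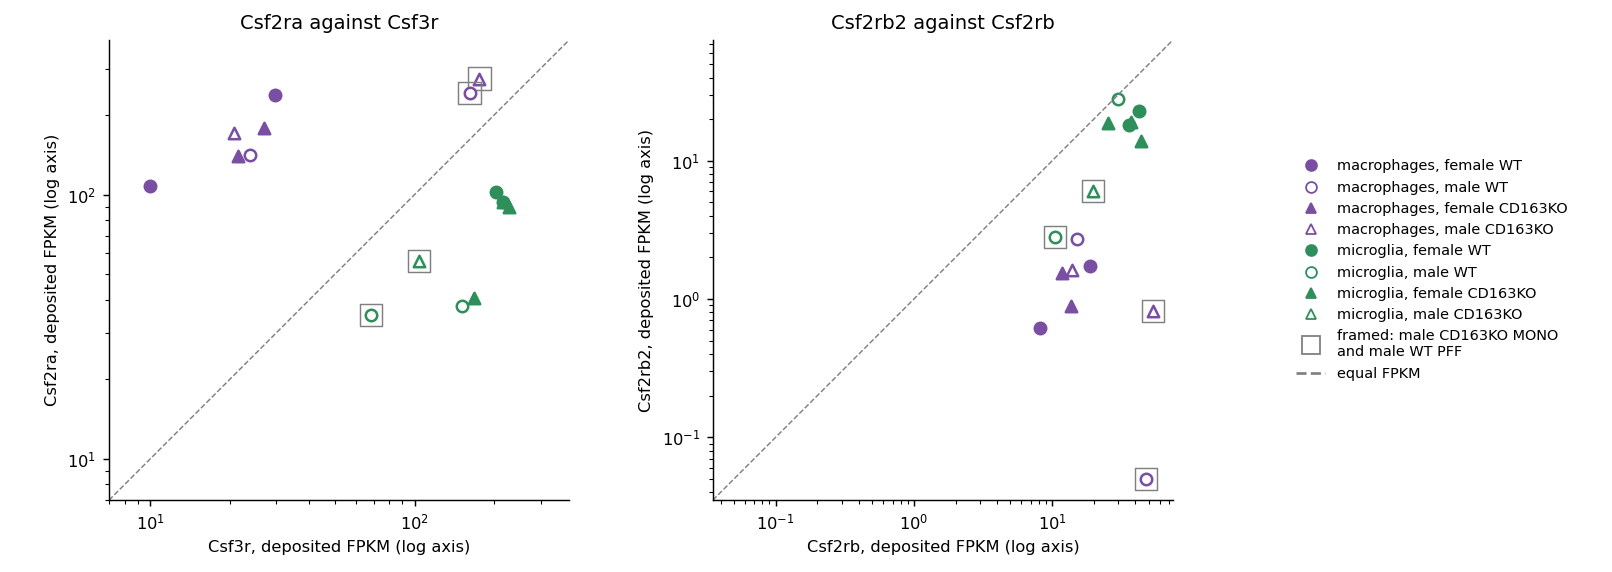
Both panels plot deposited FPKM on log axes for the 16 libraries, Csf2ra against Csf3r on the left and Csf2rb2 against Csf2rb on the right, with the dashed line at equal values and frames on the male CD163KO MONO and male WT PFF libraries. All 8 macrophage libraries lie above the line and all 8 microglia libraries below it on the left, and on the right Csf2rb2 reaches 26.6% to 92.7% of Csf2rb in microglia and at most 17.9% in macrophages.

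Deposited levels of Csf3r and Csf2rb moved with the library profile, as did those of Csf2rb2 in microglia and of Csf1r and Csf2ra in macrophages. Among the 8 macrophage libraries, Csf3r was 162 and 176 FPKM where the 10 most abundant genes took 16.5% to 16.6% of counts, and at most 29.6 FPKM elsewhere. Among microglia it was 68.3 and 104 FPKM in the 2 libraries where that share was 47.7% to 58.7%, and at least 151 elsewhere. Csf2rb was 47.65 and 53.6 FPKM in the same macrophage libraries against 8.12 to 18.8 elsewhere, and 10.5 and 19.7 FPKM in the same microglia libraries against 25.5 to 44.2. Csf2rb2 did the same in microglia (2.80 and 6.07 FPKM against 13.8 to 27.9) but not in macrophages, where the 2 libraries gave 0.05 and 0.82 FPKM against 0.62 to 2.70. In macrophages Csf1r was 531 and 953 FPKM there against 266 to 419 elsewhere, and Csf2ra 243 and 275 against 108 to 239. In microglia Csf1r was also higher in the 2 libraries (2734 and 2798 against 1298 to 2613), while Csf2ra overlapped (34.9 and 56.0 against 38.0 to 103). The part of the library profile in these results was not tested beyond a fit of all 16 libraries with that share as a covariate, which was chosen after the data were seen. In that fit all 3 called members passed the threshold in the same direction, and Csf1r passed too (log2 fold change 2.05, adjusted p = 0.000108 by edgeR).

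**Figure D4:**
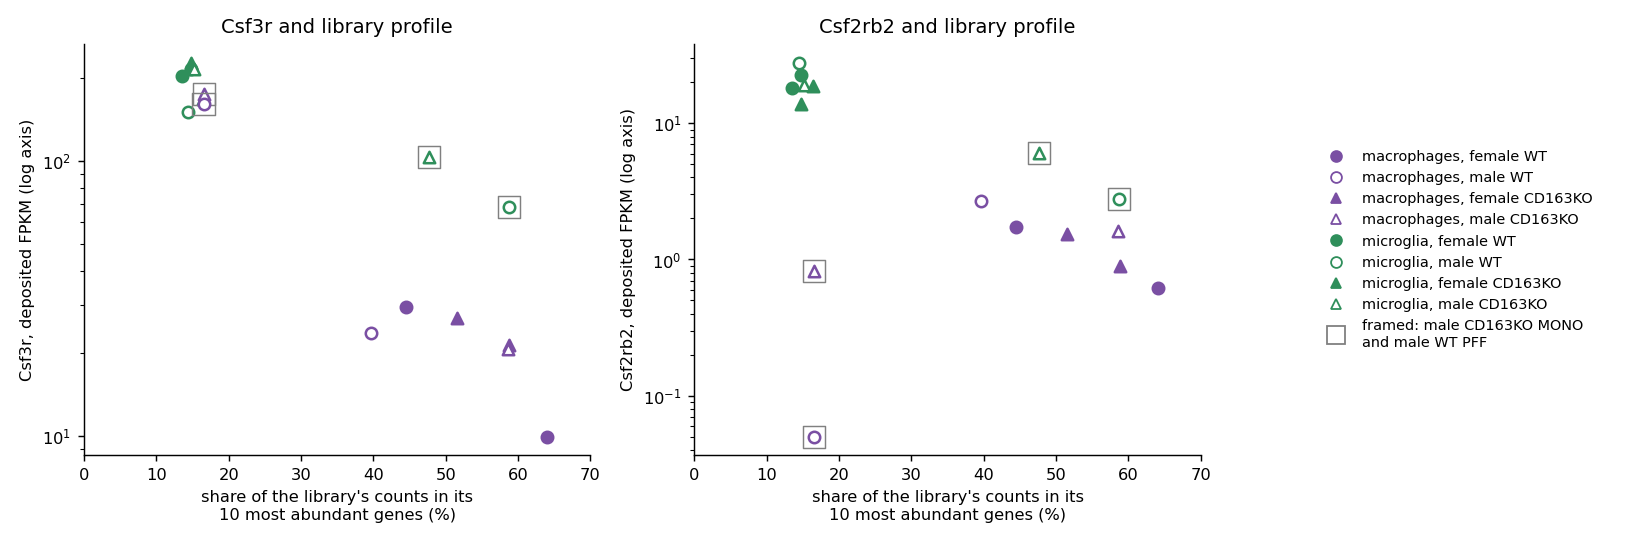
Deposited FPKM of Csf3r (left) and Csf2rb2 (right), on log axes, against the percentage of a library's counts in its 10 most abundant genes, with macrophages in purple, microglia in green and frames on the male CD163KO MONO and male WT PFF libraries. The framed macrophage libraries sit at 16.5% to 16.6% beside the microglia and the framed microglia libraries at 47.7% to 58.7% beside the macrophages.

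The β chains Csf2rb and Csf2rb2 lie near each other on chromosome 15 (GRCm38.p6 78325800 to 78351001 and 78282507 to 78305721). Their coding sequences were identical at 2503 of 2628 aligned bases, or 95.2%, and shared 1 run of 242 identical bases. Of the windows of the Csf2rb transcript, 18.9% of those of 50 bases and 7.16% of those of 100 bases occur unchanged in Csf2rb2. Reads that lie wholly within such windows had to be divided between the genes by the estimate of RSEM. The share of reads that this covers was not counted. A stretch of 80 coding bases in the last exon is shown, because the first 20 bases end the longest shared run and the 2 positions in capitals are the only ones at which the genes differ here (coding bases 2305 to 2384 of both, GENCODE vM21, chr15:78348799-78348878, + strand for Csf2rb and chr15:78284570-78284649, - strand for Csf2rb2).
Csf2rb: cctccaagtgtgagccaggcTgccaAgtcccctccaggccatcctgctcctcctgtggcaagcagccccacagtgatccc
Csf2rb2: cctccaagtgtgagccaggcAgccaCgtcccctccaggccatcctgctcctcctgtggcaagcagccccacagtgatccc

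Csf2rb, the common β chain, had deposited FPKM of 8.12 to 18.8 in 6 macrophage libraries and 47.7 and 53.6 in male WT PFF and male CD163KO MONO, and 10.5 at the lowest, 33.1 at the median and 44.2 at the highest in microglia. Its scaled FPKM was 17.3, 28.9 and 35.5 in macrophages and 12.8, 20.4 and 24.4 in microglia, with macrophages higher in 7 of 8 pairs. The ranges overlapped on both scales. The log2 fold change was -0.49 ± 0.21 (95% interval -0.97 to -0.02, adjusted p = 0.130 by edgeR) and did not pass. Its sign depended on the scaling: it was 1.01 with library totals (adjusted p = 0.126) and 0.86 with limma on FPKM (adjusted p = 0.158). Against the median of all genes in the same fit it was lower in each, at -0.77, -0.92 and -0.27.

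Csf2rb2, the paralog, was higher in microglia. Its deposited FPKM was 0.05 at the lowest, 1.22 at the median and 2.70 at the highest in macrophages and 2.80, 18.5 and 27.9 in microglia, and its scaled FPKM was 0.0372, 2.24 and 3.95 against 6.50, 9.05 and 13.98. The ranges did not overlap on either scale, and microglia were higher in 8 of 8 pairs. These values came from 4.04 to 228.5 estimated counts in macrophages and 229.7 to 1655 in microglia. The log2 fold change was 2.40 ± 0.64 (95% interval 0.98 to 3.83), or 5.29-fold, with an adjusted p of 0.0215 by edgeR. Over the 18 alternatives it ran from 1.95 to 4.08, the highest with library totals, and was 3.76 with the covariate. The call was lost without the female CD163KO MONO pair (adjusted p = 0.0562), the male WT MONO pair (0.0550) or the female WT PFF pair (0.0617), while the log2 fold change stayed between 2.36 and 2.48. Without the male WT PFF pair it was 1.95 and passed.

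In the same library Csf2rb2 had 0.105% to 17.9% of the FPKM of Csf2rb in macrophages and 26.6% to 92.7% in microglia. The transcripts of the 2 genes have 4413 to 4852 bases. The parts of transcript length and of RSEM's division of shared reads in this ratio were not tested, and the 2 genes' values are uncertain to that extent.

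Promoter sequences were held for Csf2ra, Csf3r, Csf2rb2 and Csf1, and those of the 3 receptors that differed between the populations are printed as context for the comparison (RefSeq, GRCm38.p6, 300 bases around the start). Capitals mark matches on either strand to GAGGAA, letters found in binding sites of PU.1, a myeloid transcription factor. Csf2ra held 2 matches, Csf2rb2 2, Csf3r 1 and Csf1 0. Of all 32851 promoters of the same length, 28.3% hold the motif, so a match is common. None of the 4 held the C/EBP motif TTGCNNAA, which 10.8% of all promoters hold. A match says only that the letters are present. The windows are chr19:61228369-61228668 (- strand) for Csf2ra, chr4:126024409-126024708 (+ strand) for Csf3r and chr15:78305672-78305971 (- strand) for Csf2rb2.
Csf2ra: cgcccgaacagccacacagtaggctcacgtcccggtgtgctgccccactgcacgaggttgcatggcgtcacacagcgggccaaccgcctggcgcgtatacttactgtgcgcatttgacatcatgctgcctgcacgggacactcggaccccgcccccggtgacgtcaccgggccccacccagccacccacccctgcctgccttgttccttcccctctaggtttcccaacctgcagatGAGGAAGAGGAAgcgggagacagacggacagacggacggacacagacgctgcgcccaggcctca
Csf3r: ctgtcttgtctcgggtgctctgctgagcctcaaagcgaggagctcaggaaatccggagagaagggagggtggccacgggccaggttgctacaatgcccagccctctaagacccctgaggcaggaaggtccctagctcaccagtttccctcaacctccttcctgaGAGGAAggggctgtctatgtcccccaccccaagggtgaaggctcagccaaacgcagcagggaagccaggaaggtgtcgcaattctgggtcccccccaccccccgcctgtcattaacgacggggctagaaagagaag
Csf2rb2: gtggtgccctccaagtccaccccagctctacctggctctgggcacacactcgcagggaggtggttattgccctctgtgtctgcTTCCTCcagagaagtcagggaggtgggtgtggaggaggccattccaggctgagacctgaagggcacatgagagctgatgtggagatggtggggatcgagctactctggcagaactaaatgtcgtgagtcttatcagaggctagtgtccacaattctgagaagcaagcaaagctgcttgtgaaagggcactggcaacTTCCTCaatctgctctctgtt

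The ligands were low in both populations. Csf1, the growth factor for macrophages and microglia, had 0 to 380 estimated counts in macrophages, with a median of 68, and 40 to 1157 in microglia, with a median of 148. Its deposited FPKM was 0 to 7.39 in macrophages and 0.96 to 18.5 in microglia, and its scaled FPKM 0 to 4.75 and 0.727 to 9.45. The populations overlapped on both scales. The count of 0 was that of male WT PFF macrophages, which allows up to 3 counts, and that library lists the fewest transcripts of all (9524). The population comparison gave a log2 fold change of 1.18 ± 1.101 (95% interval -1.26 to 3.62, adjusted p = 0.484 by edgeR). It passed with library totals (2.98, adjusted p = 0.0134) and with limma on FPKM (1.41, adjusted p = 0.0131), both fits in which most genes were higher in microglia, and against the median of all genes it was 1.05 and 0.28 there.

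Il34, the second ligand of Csf1r, was listed with counts in 4 of 16 libraries, and these were the 4 female WT libraries. Macrophages of female WT MONO had 33 counts and those of female WT PFF 8, and microglia had 3 in female WT MONO and 24 in female WT PFF. The other 12 libraries were at 0. Il34 was not tested, and the pattern was noticed after its values were seen. Markers of other brain cells moved with it in part. The 6 oligodendrocyte genes summed to 172 and 105 FPKM in the macrophages of female WT MONO and female WT PFF, above the 22.2 to 83.2 of the other 6 macrophage libraries, and to 133.5 and 188 FPKM in the corresponding microglia, above the 19.4 to 132 of the other 6. Female WT MONO macrophages, with the most Il34 counts, also had the highest sums of macrophage libraries for choroid plexus (12620 FPKM), astrocytes (18.0 FPKM) and neurons (5.49 FPKM), and female WT PFF macrophages the highest for endothelium and pericytes (108 FPKM) and pituitary (308 FPKM, at most 76.2 elsewhere). In microglia the female WT libraries were the highest for oligodendrocytes alone among these 6 lists: pituitary was at 1.39 and 101 FPKM (highest library 157), neurons were at 4.67 and 3.69 FPKM (highest library 7.45), choroid plexus at 1320 and 683 (highest 2527), astrocytes at 76.7 and 67.6 (highest 80.7) and endothelium and pericytes at 35.5 and 37.3 (highest 43.5). The part of these cells in the Il34 counts was not tested.

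When the 8 groups were sorted by mean scaled FPKM, the ranges of neighbouring groups overlapped in 6 of 7 neighbouring places for Csf1r, Csf2ra and Csf3r, in 7 for Csf2rb, Csf1 and Il34 and in 5 for Csf2rb2. For Csf2ra the only gap lay between the lowest macrophage group, CD163KO MONO with a mean of 244, and the highest microglia group, WT PFF with 64.4. For Csf2rb2 1 gap lay between the lowest microglia group, CD163KO MONO with 8.42, and the highest macrophage group, CD163KO PFF with 3.24, and the other between WT MONO macrophages with 2.79 and CD163KO MONO macrophages with 1.26. Csf1r and Csf3r each had 1 gap within macrophages, between CD163KO PFF and the next group below (lowest library 634 above 612 in CD163KO MONO for Csf1r, and 44.1 above 42.8 in WT MONO for Csf3r). With 2 libraries a group, these gaps carry no test. The group at the top for Csf1r, Csf3r and Csf1 was WT PFF microglia, with means of 3905, 134.5 and 5.84 scaled FPKM. For Csf1r and Csf3r this mean held the male library that stood apart (6494 against 1316 in the female, and 158 against 110 in the female), and for Csf1 it rested on the female library (9.45 against 2.23 in the male).

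The comparison of PFF with MONO asked whether fibrils changed these genes, with 7 libraries in each population and terms for sex and genotype. CD163KO MONO was 1 library in each population, and the treatment and genotype estimates of all members rest in part on it. In microglia it was the library with 799 Y-linked counts, which the sex term took as female. No gene passed in macrophages (0 of 11115, or 0%) or in microglia (0 of 11738, or 0%) by edgeR. At an unadjusted p under 0.05 there were 126 genes (1.13%) and 740 genes (6.3%), and DESeq2 called 5 and 30. On simulated data with a 4-fold change in 200 genes, the same fit recovered 5.5% of them in macrophages and 54% in microglia, so that a change of this size would mostly have been missed in macrophages.

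In microglia, Csf1 had the largest difference of the members: a log2 fold change of 2.14 ± 0.56 (95% interval 0.86 to 3.41), with an unadjusted p of 0.00423 and an adjusted p of 0.764 by edgeR. Leaving out 1 library gave 1.70 to 2.56, the lowest without the library labelled female CD163KO MONO, which held Y-linked counts. Without it the comparison came from WT libraries alone. Scaled FPKM was higher with PFF in 4 of 4 pairs of labelled sex and genotype, of which 1 uses that library and 2 use the male libraries that stood apart (male WT PFF and male CD163KO MONO, the latter not in the fit). It was 3.17 with MONO and 9.45 with PFF in WT females, 0.9753 and 3.502 in mice labelled CD163KO females, 0.727 and 2.23 in WT males and 1.43 and 2.16 in CD163KO males. Deposited FPKM was higher in 3 of 4 pairs, the exception being WT males (1.45 with MONO and 0.96 with PFF). Lists of other cell types differed in the same comparison without a called gene. Their median log2 fold changes were 5.55 for pituitary (2 genes tested), 1.25 for neurons (3 tested), 1.14 for dendritic cells (4 tested) and 0.97 for oligodendrocytes (6 tested) against 0.11 for all genes. Other lists went the other way: NK and T cells (-2.07, 1 tested), border-associated macrophages (-0.81, 12 tested) and choroid plexus (-0.66, 6 tested) were among them. Female WT PFF microglia, highest for Csf1, had the highest oligodendrocyte sum of microglia (188 FPKM) and the next to highest pituitary sum (101 FPKM, highest 157). The part of these cells in the Csf1 values was not tested. In macrophages the log2 fold change of Csf1 was -0.02 with an interval from -5.85 to 5.81, which leaves its direction unknown, and whether the populations differ was not tested.

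The receptors did not pass in either population. In microglia Csf2ra gave 1.104 ± 0.43 (95% interval 0.13 to 2.08, adjusted p = 0.764 by edgeR), higher with PFF in 2 of 4 pairs, and Csf2rb gave 0.62 with an interval from -0.01 to 1.24. Csf1r gave 1.26 with an interval from -1.02 to 3.53 in microglia and 0.55 with an interval from -0.49 to 1.58 in macrophages, where scaled FPKM was higher with PFF in 4 of 4 pairs and deposited FPKM in 2 of 4. Without female WT PFF the macrophage value was 0.0932 and without male CD163KO PFF 0.34. Single libraries moved the microglia values: without male WT MONO Csf1r was 0.55 and Csf2ra 0.57, and without male WT PFF Csf1r was 0.65, whereas without female WT PFF Csf1r was 1.93 and Csf2ra 1.66, and without female CD163KO MONO Csf1r was 1.76. Csf3r gave 0.58 in microglia and 0.46 in macrophages, and Csf2rb2 gave -0.22 and -0.69, all with intervals that hold 0. The widest intervals were those of the low genes Csf2rb2 and Csf1 in macrophages.

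**Figure D5:**
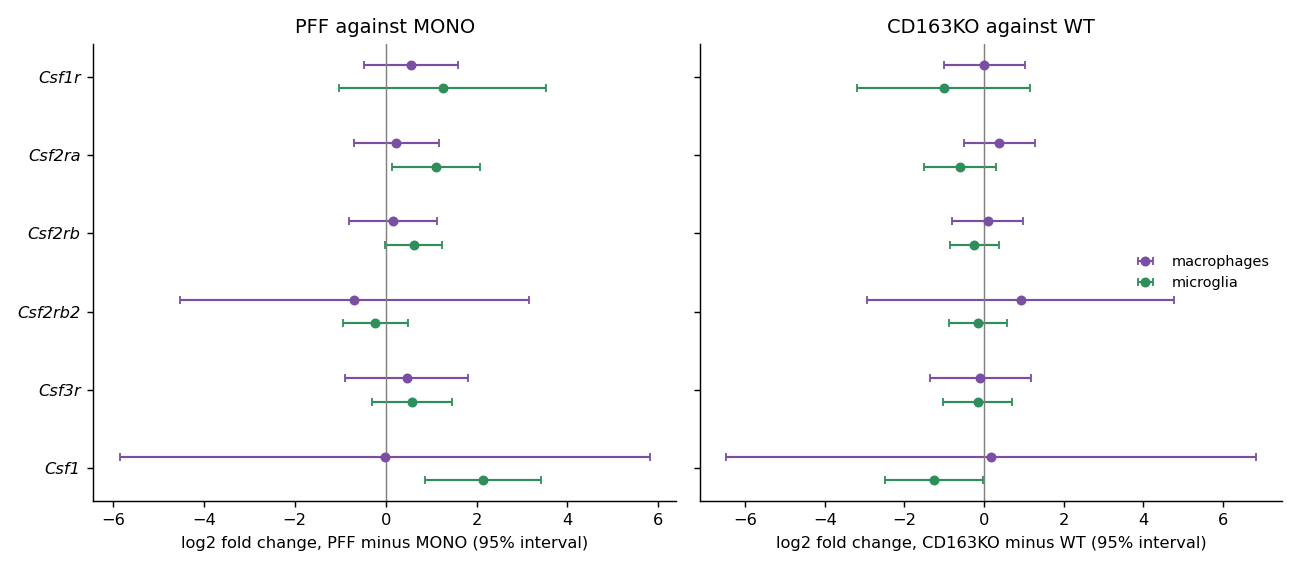
Log2 fold changes of the 6 tested members for PFF minus MONO (left) and CD163KO minus WT (right), in macrophages (purple) and microglia (green), with 95% intervals from fits of 7 libraries each. Only Csf1 and Csf2ra with PFF and Csf1 with CD163KO, all in microglia, have intervals that leave out 0 before adjustment over all genes, and none passes after it.

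The comparison of CD163KO with WT came from the same fits. In macrophages 1 of 11115 genes passed (0.009%), and it was Cd163 itself. In microglia 0 of 11738 passed (0%) by edgeR. At an unadjusted p under 0.05 there were 78 genes (0.702%) in macrophages and 141 (1.2%) in microglia, and DESeq2 called 1 gene in each. The fit in macrophages recovered 0% of the 4-fold changes of simulated data, against 63% in microglia, so that a change of this size would likely have been missed there.

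Csf1 in microglia was again the member farthest from 0, with a log2 fold change of -1.26 ± 0.54 (95% interval -2.48 to -0.03, unadjusted p = 0.0455, adjusted p = 1 by edgeR). Its scaled FPKM was higher in CD163KO in 1 of 4 pairs. With the 4 female libraries alone it was -1.997 with an adjusted p of 0.0313 by edgeR, a fit with 1 residual degree of freedom that includes the library with Y-linked counts. Marker lists differed too in microglia, without a called gene. Border-associated macrophages were at a median log2 fold change of -0.73, homeostatic microglia at -0.49 and oligodendrocytes at -0.44, against -0.02 for all genes. Pituitary (1.37, 2 tested) and NK and T cells (2.12, 1 tested) were among those above 0. The part of such cells in the Csf1 difference was not tested. Csf1r in microglia gave -1.02 with an interval from -3.18 to 1.15, and Csf2ra -0.61 with an interval from -1.51 to 0.29. Without male WT PFF they were -0.34 and -0.34, without male CD163KO PFF Csf1r was -0.60, without female WT MONO Csf2ra was -0.20, and without female WT PFF they were -1.59 and -1.04. Csf1 was -0.75 without female CD163KO MONO, the library with Y-linked counts, a fit in which the comparison came from PFF libraries alone. It was -1.99 without male CD163KO PFF. In macrophages Csf1r gave 0.01 with an interval from -1.004 to 1.02, Csf2ra 0.39, Csf2rb 0.09, Csf3r -0.09 and Csf1 0.18. Csf2rb2 was farthest from 0, at 0.92 with an interval from -2.95 to 4.78, and ran from 0.0762 to 3.07 when leaving out 1 library. The interval of Csf2ra ran from -0.51 to 1.28 and that of Csf3r from -1.36 to 1.17, so that changes in either direction remain possible.

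The pathway lists held 63 genes around these receptors, of which 55 were tested in the population comparison. Of these, 13 were higher and 8 lower in microglia, beside 8.46% and 14.3% of all genes tested, and 34 did not pass. Their median log2 fold change was 0.19 against 0.28 for all genes. Among the 10 tested genes of the list for Csf1r expression and partners, 5 were higher and 2 lower. Cebpa, a transcription factor of the myeloid lineage, was among the higher (1.75 ± 0.28, adjusted p = 0.00119 by edgeR). Cebpb, another C/EBP family member, was lower in microglia (-6.45 ± 1.22, adjusted p = 0.00322 by edgeR), although its scaled FPKM overlapped (0.79 to 237 in macrophages and 0.12 to 32.7 in microglia).

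Of 29 tested genes of receptor signalling, 6 were higher and 1 lower. The adaptor Gab1 (2.82 ± 0.83) and the regulatory PI3-kinase subunit Pik3r1 (2.02 ± 0.36) had the largest log2 fold changes among the 6, and the 1 lower gene was the Src-family kinase Fgr (-4.59 ± 0.65), each past the threshold by edgeR. Of 12 tested feedback and target genes 2 were higher and 4 lower, with the kinase Pim1 (-5.45 ± 1.32, at 0 to 0.578 scaled FPKM in microglia) among the lower. Of the 10 other ligands and receptors of the family, 4 could be tested and 1 passed, the receptor Flt3 (-6.82 ± 1.67), which had 0 to 0.324 scaled FPKM in microglia, so that the fitted values of Flt3 and Pim1 depend on the prior count. The remaining ligands Csf2 and Csf3, which encode GM-CSF and G-CSF, reached at most 1.08 and 0.06 deposited FPKM in macrophages and 0 and 0.18 in microglia, and were not tested. No gene of these lists passed for PFF against MONO or for CD163KO against WT, with 56 tested in macrophages and 54 in microglia.

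Over all 16 libraries the genes most like each tested member were sought among the 10906 that passed the filter, by Pearson's r of log2(scaled CPM + 1). This is a description in which all points share the population contrast and the library profile. Csf1r was most like Ctsd (r = 0.97), Ctsz (0.94) and Cst3 (0.93). Csf2ra was most like Stab1 (0.98), Mospd3 (0.97) and Mt2 (0.97), and Stab1 is a border-associated macrophage marker. Csf3r was most like Slc16a6 (0.93), Itgam (0.895), which encodes CD11b, and Plcg2 (0.89). Csf2rb2 was most like Ankrd10 (0.97), Zbtb4 (0.96) and Parvg (0.96), Csf2rb like Myo1f (0.84), Chmp1a (0.83) and Rab11fip1 (0.83), and Csf1 like Tcf3 (0.91), Gucd1 (0.86) and Maz (0.85). No 2 members shared a gene in these short lists.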

How the data were processed

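Per the submitters' notes and the study's methods, the authors removed rRNA and low-quality reads, mapped reads to RefSeq transcripts (mm10) with Bowtie2 and estimated expression with RSEM; their DESeq2 comparisons were not used. Each deposited table gives an expected count and FPKM per transcript. The authors' expected counts and FPKM were summed per symbol (99.4% of 27787 transcripts matched), with unlisted transcripts at 0, and counts were rounded. Tests used edgeR 4.0.16 (quasi-likelihood, TMM, filterByExpr, Benjamini-Hochberg), with a block of matched pairs between populations, or sex with genotype and treatment, in R 4.3.3. DESeq2 1.42.0 and limma 3.58.1 on log2(FPKM + 1) were alternatives. Scripts were tested on simulated data. All members were named; pathway genes were named as the up to 4 called genes that moved most each way, of which 1 is not reported here. Members and lists were chosen with earlier results of these data known. Counting error alone enters the limit of 3 counts. Batches of mice are not assigned to libraries in the labels, so batch and group cannot be told apart.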

Additional observations from a re-analysis of the deposited data

Results flagged for a closer look

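In 4 of 14 sets of 8 libraries (a member in a population, scaled FPKM), 1 library lay farther from the rest than a Dixon test at the 95% level allows. Chance gives about 1 in 20 for values without ties, which does not hold for Il34, where 6 of 8 libraries in each population were at 0: its 2 cases say only that it was seen in few libraries. Csf1r in male WT PFF microglia was 6494, where the other 7 microglia libraries had 652.7 to 3338, and this library also stands apart by its TMM factor. Csf1 in female WT PFF microglia was 9.451 (others 0.7273 to 3.502). Il34 was 2.024 in female WT MONO macrophages (others 0 to 0.6792) and 0.4493 in female WT PFF microglia (others 0 to 0.09078). For the 14 combinations of a member with the treatment or the genotype contrast, 0 moved one way in all 4 pairs of macrophage libraries and the other way in all 4 pairs of microglia libraries.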

How the results depend on the processing

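Csf2ra and Csf3r kept their direction and call between populations in all 18 alternatives, and Csf2rb2 its direction in all 18 and its call in 15. The number of genes called between populations was 5895 with library totals, 4476 with DESeq2, 6243 with limma on FPKM, 4045 with female libraries only, 3975 with the share of the 10 most abundant genes as a covariate (chosen after seeing the data) and 1821 to 4779 when leaving out 1 pair, the highest without male WT PFF. For PFF against MONO in macrophages it was 1 with library totals, 5 with DESeq2 and 1 with limma, and in microglia 2 with library totals, 11 with no filter, 30 with DESeq2, 6 with female libraries only and 0 to 1 leaving out 1 library. For CD163KO against WT it was 0 with the CPM filter, 3 with limma, 0 with female libraries only and 0 to 1 leaving out 1 library in macrophages, and 19 with no filter, 1 with DESeq2 and 91 with female libraries only in microglia. The cause was not tested.

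The members whose log2 fold change changed sign were not called in the fit reported. Between populations Csf2rb was 1.01 with library totals and 0.86 with limma. For PFF against MONO in macrophages, limma gave Csf2ra -0.0098 and Csf2rb -0.0271, female libraries only gave Csf2ra -0.0404, Csf2rb -0.36, Csf2rb2 0.022, Csf3r -0.29 and Csf1 1.27, and a fit without sex gave Csf1 0.0166. In microglia female libraries only gave Csf2rb2 0.015 and limma gave Csf3r -0.0411. For CD163KO against WT in macrophages, Csf1r was -0.0036 with RLE factors and with DESeq2, -0.44 with library totals, -0.41 with limma and -0.41 with female libraries only, Csf2ra was -0.15, -0.0538 and -0.19 with the last 3, and Csf2rb was -0.50, -0.33 and -0.12. Female libraries only also gave Csf2rb2 -0.0152, Csf3r 0.29 and Csf1 -1.52, and Csf3r was 0.23 with the male CD163KO MONO libraries and 0.54 with the covariate. In microglia, library totals gave Csf2ra 0.0666, Csf2rb 0.24, Csf2rb2 0.12 and Csf3r 0.37, limma gave 0.0166, 0.27, 0.35 and 0.38, the male CD163KO MONO libraries gave Csf2rb 0.0059 and Csf3r 0.0106, and the covariate gave Csf3r 0.0177. Leaving out 1 library at a time assumed that the lone remaining library of its group varies like the other groups. Without female CD163KO MONO its group was empty, so PFF against MONO came from WT libraries and CD163KO against WT from PFF libraries. For PFF against MONO in macrophages, leaving out 1 library gave -0.0278 to 0.44 for Csf2ra, -0.35 to 0.43 for Csf2rb, -2.89 to 0.10 for Csf2rb2, -0.25 to 1.03 for Csf3r and -2.31 to 1.42 for Csf1. In microglia it gave -0.71 to 0.0644 for Csf2rb2. For CD163KO against WT in macrophages it gave -0.41 to 0.40 for Csf1r, -0.17 to 0.59 for Csf2ra, -0.19 to 0.30 for Csf2rb, -0.58 to 0.53 for Csf3r and -1.37 to 2.53 for Csf1, and in microglia -0.37 to 0.34 for Csf2rb2.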
